A study of Mus musculus with 6 samples.

Results

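Mitochondrial ribosomal proteins build the ribosome inside mitochondria, and the members described here are the gene rows whose name, or one of several joined names, begins with Mrpl or Mrps followed by a digit. The rule found 77 of 23698 rows, 48 with an Mrpl symbol (large subunit) and 29 with an Mrps symbol (small subunit), and none of them is joined with another gene. The study followed untranslated regions and translation in mouse epidermal cells and squamous cell carcinoma (SCC) cells. The libraries used here come from cultured SCC cells, which are keratinocytes taken from back skin at P0 that carry HrasG12V and a knockout of Tgfbr2 (Tgfbr2 fl/fl KO), at passages 10 to 15. They comprise 1 library of ribosome-protected fragments (footprints) and 2 RNA-seq replicates of total mRNA. The long-read libraries, from SCC cells, epidermal stem cells and wild-type cells, were not analysed here, so every value is a level in 1 genotype. The labels do not state what drove the deletion, how many lines or animals the cells came from, or whether the RNA-seq replicates are independent cultures.

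The footprint library held 3549555 counts on exons, of which 3198469 lay on coding sequence (CDS). The RNA-seq replicates held 10707930 and 14003713 counts on exons, with 7207264 and 9625093 on the CDS. The cells carried the basal keratinocyte keratin Krt5 at 7965 and 9483 RPKM in RNA (counts per kb of counted length, scaled to the library's exon counts) and 4640 RPKM in footprints. Its partner Krt14 stood at 4824 and 5362 RPKM in RNA and 3028 RPKM in footprints, and the epidermal transcription factor Trp63 at 141 and 125 RPKM in RNA. All 11 markers of fibroblasts, immune cells, melanocytes and endothelium together summed to 10.3 and 15.1 RPKM in RNA and 1.85 RPKM in footprints, with the melanosome protein Pmel highest at 5.03 and 5.19 RPKM in RNA. The engineered genes were both read: Tgfbr2, the TGF-beta type II receptor, had 61.4 and 59.0 RPKM in RNA and 30.7 RPKM in footprints, and Hras had 48.5 and 50.9 RPKM in RNA and 64.0 RPKM in footprints. A count per gene cannot show whether a floxed exon is missing from these reads.

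Mitochondrial ribosomes translate the few proteins that the mitochondrial genome encodes, which are core subunits of the respiratory chain and ATP synthase. All of their proteins are encoded in the nucleus, translated by cytosolic ribosomes and imported, so the footprints here are those of cytosolic ribosomes making mitochondrial ribosome parts. Many members descend from bacterial ribosomal proteins, and others were added to the particle in the course of mitochondrial evolution.

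All 77 members passed the filters, an RPKM above 1 in both RNA-seq replicates and a mean normalised count above 25, as did 9863 of the 23698 rows. The members took 0.445% of footprints on the CDS (95% Wilson interval 0.438 to 0.453%). They took 0.369% (0.365 to 0.374%) and 0.377% (0.373 to 0.381%) of the RNA-seq counts on the CDS. Their share was thus larger among footprints than in either RNA-seq replicate, and this held for both subunits. The large subunit took 0.278% of footprints (0.272 to 0.284%) against 0.231% (0.228 to 0.235%) and 0.236% (0.233 to 0.240%) of RNA. The small subunit took 0.168% of footprints (0.163 to 0.172%) against 0.138% (0.136 to 0.141%) and 0.140% (0.138 to 0.143%) of RNA. These intervals cover counting error only, since reads without molecular identifiers are not independent molecules. In bulk cultures, fewer cells with an mRNA and less of that mRNA per cell cannot be told apart.

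Translational efficiency is given as the log2 ratio of footprint RPKM on the CDS to mean RNA-seq RPKM on exons, relative to the median of all passing rows. Values carry the SD over the RNA-seq replicates used singly (n = 2), and footprints have no replicate. The members' median was 0.85 ± 0.08, and 68 of 77 members lay above the median of all passing rows. A log2 translational efficiency above 1 was found in 35 of 77 members (45.5%), against 20.8% of all passing rows, and one below -1 in 1 of 77, against 21.1%. With RNA counted on the CDS alone, the median was 0.67, 22 of 77 members lay above 1 against 18.3% of rows, and again 1 lay below -1 against 19.5%. The members were thus more often on the high side than passing rows in general, under both ways of counting RNA. Genes with a CDS of like length had higher values than all passing rows as well. The 3866 passing rows whose counted CDS is as long as that of the central 90% of members had a median of 0.51, or 0.38 with RNA on the CDS, and 32.8% of them lay above 1, or 27.2% on the CDS. Against genes of like length, the share of members above 1 was thus higher on exons (45.5%) and near the same on the CDS (28.6%). On the CDS, 67 of 77 members lay above the median of all passing rows, against 2498 of the 3866 rows of like length. Below -1 on the CDS lay 1 of 77 members against 455 of those 3866 rows. With at least 100 counts asked for in every library, the median of the 67 remaining members was 0.45 relative to the 4829 rows kept. That filter moved the reference, and with it every gene, by -0.39, and relative to all passing rows the median of the 67 was 0.85.

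The comparison of the subunits asks whether the 48 large and 29 small subunit members stood at like levels. Large subunit members had a median of 85.6 RPKM in footprints, and 31.4 and 32.2 RPKM in RNA on exons. Small subunit members had a median of 101.6 RPKM in footprints, and 34.1 and 37.8 RPKM in RNA on exons. The large subunit was thus lower in all 3 libraries, at 0.843 of the small subunit's footprints and 0.919 and 0.851 of its RNA. With RNA counted on the CDS the order of the RNA medians turned, with 49.7 and 55.8 RPKM for the large and 42.7 and 51.3 RPKM for the small subunit. All passing rows had medians of 19.1 RPKM in footprints and 15.5 and 15.2 RPKM in RNA on exons.

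**Figure D1:**
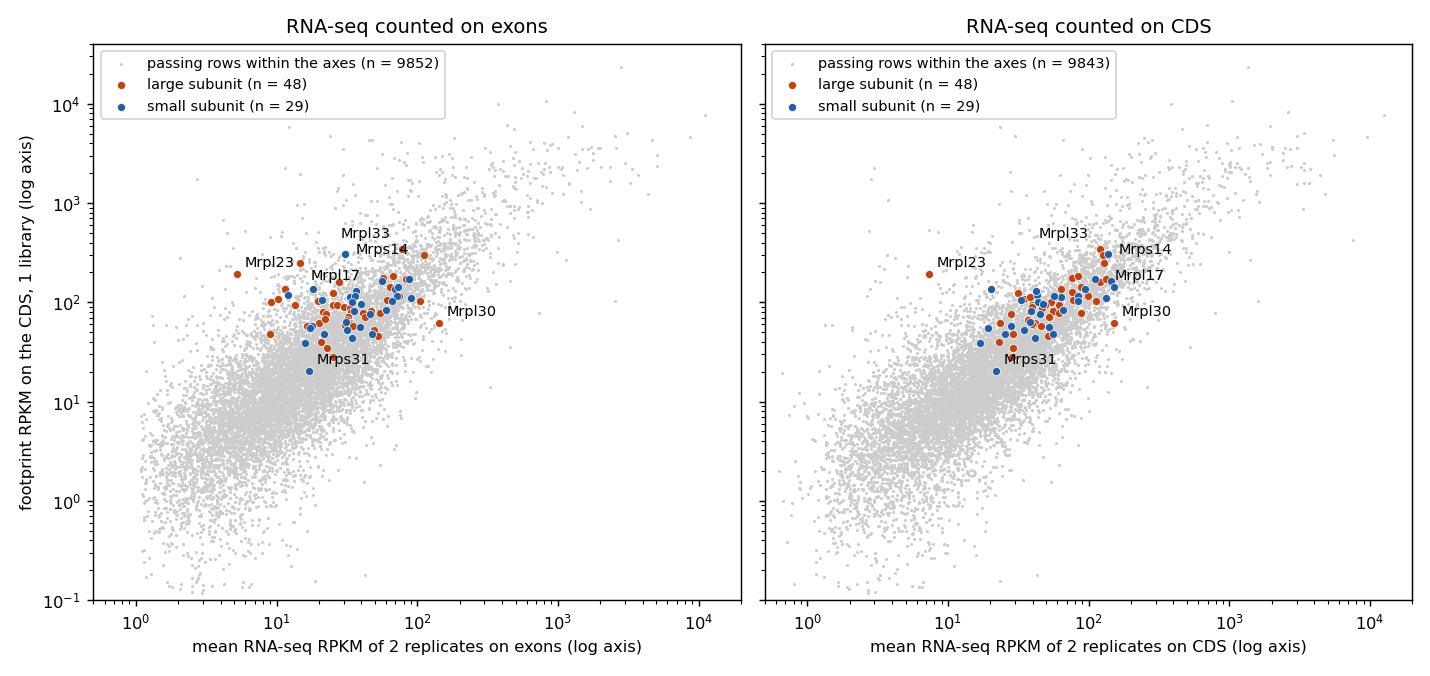
Footprint RPKM on the CDS (1 library, log axis) against mean RNA-seq RPKM of 2 replicates (log axis), with RNA counted on exons (left) or on the CDS (right); grey points are passing rows and coloured points are members by subunit. Members lie between 20.3 and 342 RPKM in footprints, and Mrpl30 lies to the right of the others in RNA on exons.

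The median translational efficiency was 0.97 ± 0.13 in the large and 0.81 ± 0.06 in the small subunit. The difference, large minus small, was 0.17, with 0.21 and 0.11 from the RNA-seq replicates used singly. It did not hold up: with RNA counted on the CDS the medians were 0.61 and 0.71 and the difference turned to -0.10. It also turned, to -0.056, without the 14 members that have a counted 3′UTR above 1000 nt, and it came to 0.081 without Mrpl23 and to 0.013 with at least 100 counts in every library. Without division by length it came to 0.0030, and among members counted over 80% or more of their annotated CDS to 0.0031. Above 1 lay 24 of 48 large (50%) and 11 of 29 small subunit members (37.9%) with RNA on exons, and 14 and 8 with RNA on the CDS. No difference in translational efficiency between the subunits was therefore detectable that kept its direction across the ways of counting.

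**Figure D2:**
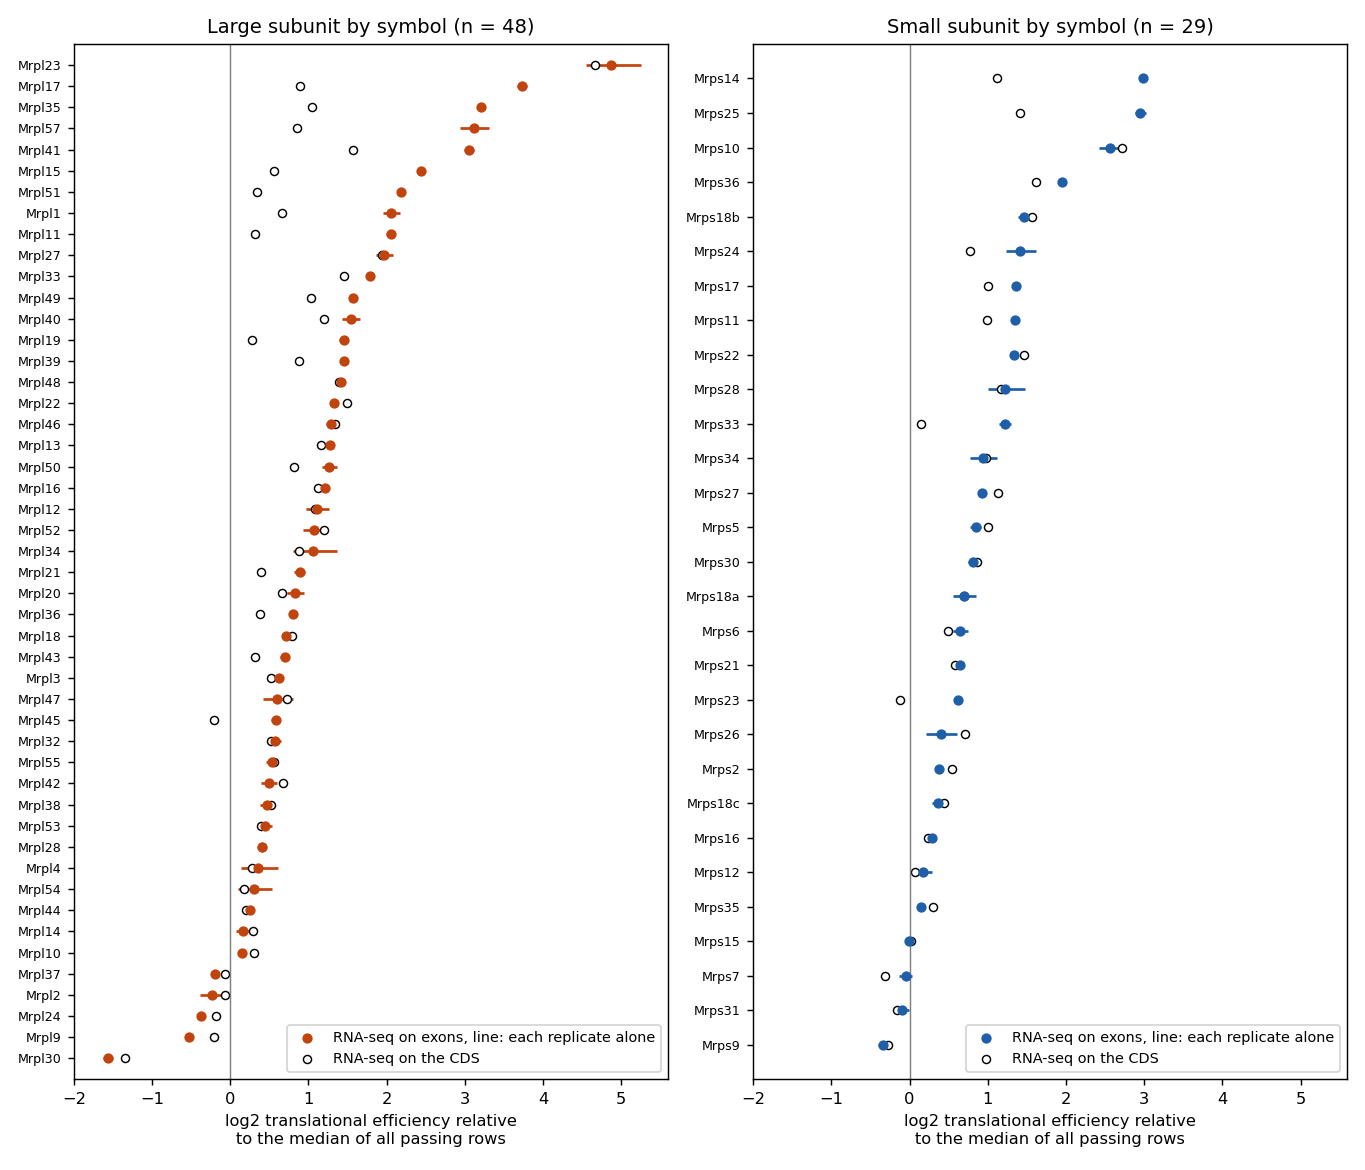
Log2 translational efficiency of each member relative to the median of all passing rows, by subunit, with RNA counted on exons (filled points; lines join the values from each RNA-seq replicate used singly) and on the CDS (open points). Most members lie above 0 in both subunits, with medians of 0.97 (large) and 0.81 (small) on exons.

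How far members differed from each other depended on the way of counting. Footprint RPKM ran from 20.3 to 342, a range of 16.9-fold, and 65 of 77 members lay within 2-fold of their median. RNA RPKM on exons ran from 5.24 to 143, a range of 27.4-fold, with 55 of 77 within 2-fold. The low end is Mrpl23 alone, and without it RNA ran over 16.0-fold, no wider than footprints. RNA on the CDS ran over 20.5-fold with Mrpl23 and 8.94-fold without it, the latter narrower than footprints. The SD of log2 RPKM was 0.77 in footprints and 0.94 in RNA on exons, and without Mrpl23 0.77 and 0.89. The large subunit had 0.76 in footprints and 1.02 in RNA, and the small subunit 0.80 and 0.79. With RNA on the CDS the SDs in RNA were 0.83 and 0.90, and without Mrpl23 the large subunit had 0.75 in footprints and 0.72 in RNA on the CDS. Among members with 100 or more counts per library the small subunit had 0.71 in footprints and 0.80 in RNA on exons. Over all members the SD in RNA on the CDS was 0.85, and 0.79 without Mrpl23. With 100 or more counts per library, all members had 0.75 in footprints and 0.87 in RNA on exons. The SD over all members was thus smaller in footprints than in RNA under each of these ways of counting. Within each subunit, and for the range without Mrpl23, a smaller spread in footprints did not hold throughout. On the CDS, 57 of 77 members lay within 2-fold of the median. Across members, which are not independent replicates, footprints and RNA on exons had a Pearson's r of 0.25 (Spearman's rho 0.30), and 0.56 (0.59) with RNA on the CDS. Without Mrpl23 these were 0.33 (0.35) and 0.69 (0.64). Over all passing rows, whose levels are spread more widely (SD of log2 footprint RPKM 2.39 against 0.77 in members), these were 0.79 (0.79) and 0.82 (0.81).

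Most of the members whose value depended on where RNA was counted have a long counted 3′UTR. Translational efficiency was higher on exons than on the CDS by more than 1 in 12 members, 10 of them with more than 1000 nt of counted 3′UTR. The other 2 are Mrpl51 and Mrps33, and 4 of the 14 members above that length differed by less; Mrpl51 was named after its values were seen. These 14 had a median translational efficiency of 2.25 on exons and 0.83 on the CDS, and the other 63 had 0.70 and 0.57. The median RNA of the 14 was 15.6 RPKM on exons and 49.8 RPKM on the CDS. Of the 12 members highest on exons, 9 have such a 3′UTR, against 2 of the 12 highest on the CDS. Over all members, RNA on the 3′UTR had a density per nt of 22.1% and 19.996% of that on the CDS in the replicates, against 52.4% and 47.5% over all passing rows. Pooled per nt, counted 3′UTRs of members were thus covered less by RNA reads than those of all passing rows. This pooled value weighs long 3′UTRs most, and it was not computed without the 14 members above 1000 nt. It was 18.1% and 16.2% in the large subunit, and 32.1% and 29.9% in the small subunit. Whether members with shorter 3′UTRs differ from genes in general was not tested.

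**Figure D3:**
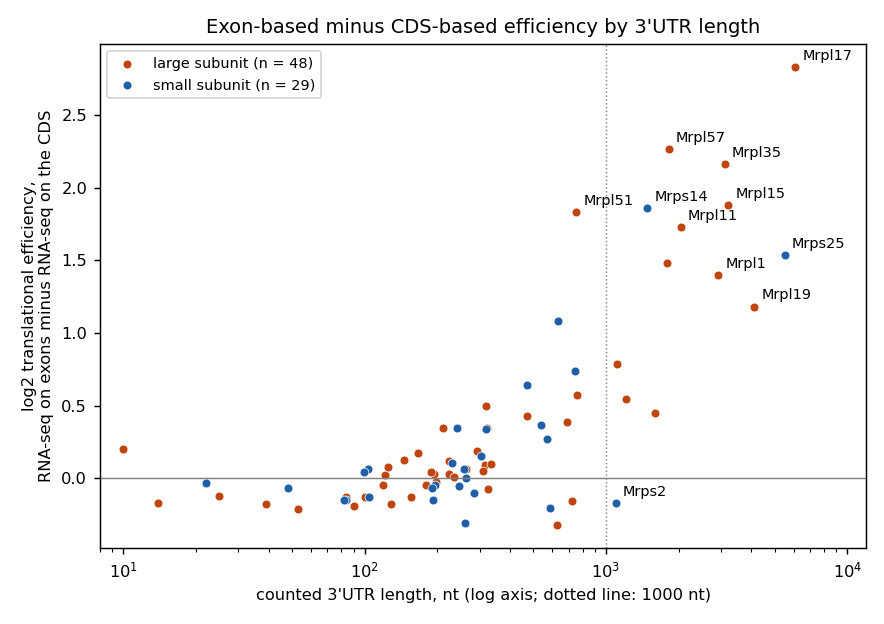
Difference in log2 translational efficiency between RNA counted on exons and on the CDS (exons minus CDS) for each member, against its counted 3′UTR length in nt (log axis, dotted line at 1000 nt); points are members, coloured by subunit. Members with more than 1000 nt of 3′UTR have a median of 2.25 on exons and 0.83 on the CDS.

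By role, large subunit members with a bacterial counterpart (29) had a median translational efficiency of 0.89 on exons and 0.55 on the CDS, at 83.6 RPKM in footprints. Those found only in mitochondria (19) had 1.07 and 0.67, at 93.2 RPKM. In the small subunit, members with a bacterial counterpart (16) had 0.64 and 0.56, at 106 RPKM, and mitochondrion-specific ones (10) had 0.93 and 0.85, at 89.998 RPKM. The median translational efficiencies of mitochondrion-specific members were the higher ones in both subunits, but the lists overlapped widely. Their median footprints were higher in the large and lower in the small subunit. In the large subunit the medians on exons carried SDs of 0.10 and 0.17 over the replicates, and the upper quartile ran the other way, 1.79 with a bacterial counterpart and 1.495 without. In the small subunit 14 of 16 members with a bacterial counterpart and 8 of 10 without lay above the median of all passing rows on the CDS. The 6 members of the central protuberance, the crest of the large subunit that faces the small one, had 1.36 on exons and 1.27 on the CDS. Of these 6, 4 were counted over 80% or more of their annotated CDS. The others were Mrpl27 (39.4% counted, 1.97 on exons and 1.94 on the CDS) and Mrpl48 (58.2%, 1.42 and 1.39). The 8 members around the exit of the polypeptide tunnel had 0.96 and 0.80, and 5 of them were counted over 80% or more.

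The stalk recruits translation factors to the large subunit. Mrpl12, present in several copies per ribosome, had 183 RPKM in footprints and 74.7 and 92.8 RPKM in RNA on the CDS. Mrpl10, which anchors Mrpl12, had 83.6 RPKM in footprints and 60.1 and 70.8 RPKM in RNA on the CDS. Mrpl11, at the base of the stalk, had 103 RPKM in footprints and 77.9 and 81.8 RPKM in RNA on the CDS. The multicopy protein thus had more footprints than both of its neighbours. Mrpl12 had 2.19 times the footprints of Mrpl10 (95% counting interval 1.84 to 2.596) against 1.24 and 1.31 times its RNA, and 1.77 times those of Mrpl11 (1.49 to 2.12) against 0.959 and 1.13 times its RNA, counted on the CDS. With RNA on exons it had 1.03 and 1.21 times the RNA of Mrpl10 and 3.18 and 3.62 times that of Mrpl11, which has 2044 nt of counted 3′UTR. On that scale the contrast with Mrpl11 turned, with a translational efficiency of 1.11 ± 0.21 in Mrpl12 and 2.05 ± 0.08 in Mrpl11. The footprint RPKM of Mrpl12 was the fifth highest in the large subunit and 2.14 times the subunit's median.

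Around the tunnel exit, Mrpl17 had 246 RPKM in footprints and 14.1 and 15.2 RPKM in RNA on exons. Its translational efficiency was 3.73 ± 0.09 on exons and 0.90 on the CDS, and it carries 6078 nt of counted 3′UTR. Mrpl23, which lines the exit, was highest on both scales, at 4.87 ± 0.50 on exons and 4.66 on the CDS. This value rests on 105 nt, 19.7% of its annotated CDS, and Mrpl23 is the only member with fewer than 50 counts in a library; it had 194 RPKM in footprints and 4.02 and 6.46 RPKM in RNA. Mrpl24, also at the exit, was on the low side, with 102 RPKM in footprints, 107 and 103 RPKM in RNA, and -0.38 ± 0.03 on exons (-0.19 on the CDS). Mrpl44, an RNase III-like protein, and Mrpl47 were among the lowest of the subunit in footprints, at 34.6 and 39.4 RPKM.

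Among other large subunit members with a bacterial counterpart, Mrpl33 had the most footprints per kb of all members, 342 RPKM. It had 76.7 and 79.3 RPKM in RNA and a translational efficiency of 1.79 ± 0.04. These values rest on 195 nt, 53.0% of its annotated CDS. By count, Mrpl17 had more footprints on the CDS, 461 against 237 in Mrpl33. Mrpl35 had 136 RPKM in footprints and 11.4 and 11.8 RPKM in RNA, giving 3.21 ± 0.05 on exons and 1.05 on the CDS. Mrpl1, which belongs to the mobile arm beside the tRNA exit site, was low in RNA at 9.68 and 8.25 RPKM and had 47.4 RPKM in footprints. Mrpl30 was the lowest of the 9 members below the median of all passing rows. It had the most RNA of all members, 137 and 149 RPKM, and 61.5 RPKM in footprints, giving a translational efficiency of -1.56 ± 0.10 on exons and -1.35 on the CDS. Of its annotated CDS, 62.5% was counted. Mrpl9 followed with 45.97 RPKM in footprints, 52.8 and 52.0 RPKM in RNA and -0.53 ± 0.0034, or -0.21 on the CDS.

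Of the mitochondrion-specific large subunit members, Mrpl52 had 299.97 RPKM in footprints and 102 and 123 RPKM in RNA, high in all 3 libraries. Mrpl57 had 100.2 RPKM in footprints and 8.04 and 10.2 RPKM in RNA, giving 3.12 ± 0.26 on exons and 0.85 on the CDS. Mrpl37 had the fewest footprints of the subunit, 28.2 RPKM, with 25.2 and 25.6 RPKM in RNA and a value of -0.19 ± 0.03. Mrps30 and Mrps18a carry small subunit symbols but sit in the large subunit, and they had 0.81 ± 0.08 and 0.70 ± 0.20.

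In the small subunit, whose head and body hold the mRNA, Mrps14 had the most footprints, 309 RPKM, with 31.7 and 29.9 RPKM in RNA. Its translational efficiency was 2.98 ± 0.05 on exons and 1.12 on the CDS. Mrps25, specific to mitochondria, had 118 RPKM in footprints and 12.8 and 11.4 RPKM in RNA, giving 2.95 ± 0.10 and 1.42. Mrps10, a protein of the head, was high under both ways of counting, at 2.56 ± 0.20 and 2.71, from 136 RPKM in footprints and 16.5 and 19.9 RPKM in RNA, although 35.4% of its annotated CDS was counted. Mrps21 and Mrps33 followed Mrps14 in footprints, at 172 and 165 RPKM. At the low end, Mrps31 had the fewest footprints of all members, 20.3 RPKM, with 18.4 and 15.9 RPKM in RNA. Mrps27, an RNA-binding pentatricopeptide repeat protein, had 38.5 RPKM in footprints, and Mrps15 had 43.6 RPKM. Mrps9, Mrps31 and Mrps7 had the lowest translational efficiencies of the subunit on exons, -0.34 ± 0.09, -0.10 ± 0.14 and -0.05 ± 0.11, and on that scale only the first differed from 0 by more than the spread between replicates. With RNA on the CDS Mrps7 was the lowest of the subunit, at -0.32.

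The 3 Mrps18 genes encode related proteins that occupy different places in the ribosome. Mrps18b had the highest value of them, 1.47 ± 0.12, from 129 RPKM in footprints and 35.01 and 38.8 RPKM in RNA. Mrps18a, in the large subunit, had 63.7 RPKM in footprints and 28.02 and 33.9 RPKM in RNA. Mrps18c had 117 RPKM in footprints and 75.8 and 66.9 RPKM in RNA, giving 0.37 ± 0.11. Mrps36 is named as a ribosomal protein but is a subunit of the alpha-ketoglutarate dehydrogenase complex, and it had 104 RPKM in footprints, 21.8 and 20.6 RPKM in RNA and 1.96 ± 0.05. Between RNA-seq replicates, the log2 ratio of replicate 2 to replicate 1 was largest among well-counted members in Mrpl34 (0.54), Mrps28 (0.45) and Mrpl4 (0.45), against an SD of 0.20 over all passing rows.

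Footprints on members lay mostly on the CDS, 93.2% of those on the 3 regions, with 4.06% on the 5′UTR and 2.71% on the 3′UTR, against 93.2%, 4.95% and 1.81% over all passing rows. The 5′UTR footprints were concentrated in a few members. Mrps17 had 54.7, or 27.2% of its footprints on 5′UTR and CDS together, Mrpl42 had 49.0 (20.4%) and Mrps21 had 47.6 (23.1%). Mrpl18, with 34.0, and Mrpl30, with 33.9 (34.1%), came next and were added after their values were seen. All of these carry an ATG upstream of the annotated start. The first upstream ATG of each is shown in capitals, 5′ to 3′, read from the annotated transcript, since these members had the most 5′UTR footprints. The frames run for 27, 5, 3, 11 and 30 codons in the order shown. Counts are per region and do not place footprints on these frames, and the counted 5′UTR is shorter than the annotated one in Mrpl18 (93 of 347 nt), Mrpl30 (103 of 215 nt) and Mrps21 (43 of 106 nt). In Mrps17 it is longer, 297 nt against 144 nt in the transcript shown, so its footprints may lie outside that transcript.
Mrps17: cacgctgcgcccATGctccgccggcct
Mrpl42: gaagcaagATGgcgagcgcgcgg
Mrps21: agtcccggaagaATGaagatttaaata
Mrpl18: cccacagttaacATGgctgcgactagt
Mrpl30: ggcgtggtttgaATGttgcactgggtc
The 27 members with an upstream ATG held 382 footprints on their 5′UTRs, 157 per kb, and the 50 without one held 239, or 75.9 per kb. RNA on the 5′UTR was also denser in the first group, at 341 and 515 counts per kb against 210 and 339. Their median translational efficiency was 0.64 against 0.93 on exons and 0.57 against 0.68 on the CDS. The densities rest on the 5 members shown, which held 219 of the 382 footprints. Without them, the other 22 had 91.1 footprints per kb and an RNA density of 155 and 247 per kb, but since the 5 were chosen for their footprints and all come from the group with an upstream ATG, a lower footprint density there follows from the choice. On the 3′UTR, Mrpl43 had 94.7 footprints, Mrpl19 had 42.9 and Mrpl35 had 27.02. Exons of Mrpl43 overlap those of Twnk, exons of Mrpl19 those of Gcfc2 and exons of Mrpl18, named above for its 5′UTR, those of Tcp1, on the opposite strand. These overlaps were taken over whole genes and were not placed on the counted UTRs. Mrpl43 and Twnk start 779 nt apart, so their overlap lies toward the start of Mrpl43. The strand used in counting is not stated either, and the source of the footprints on those UTRs is uncertain.

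**Figure D4:**
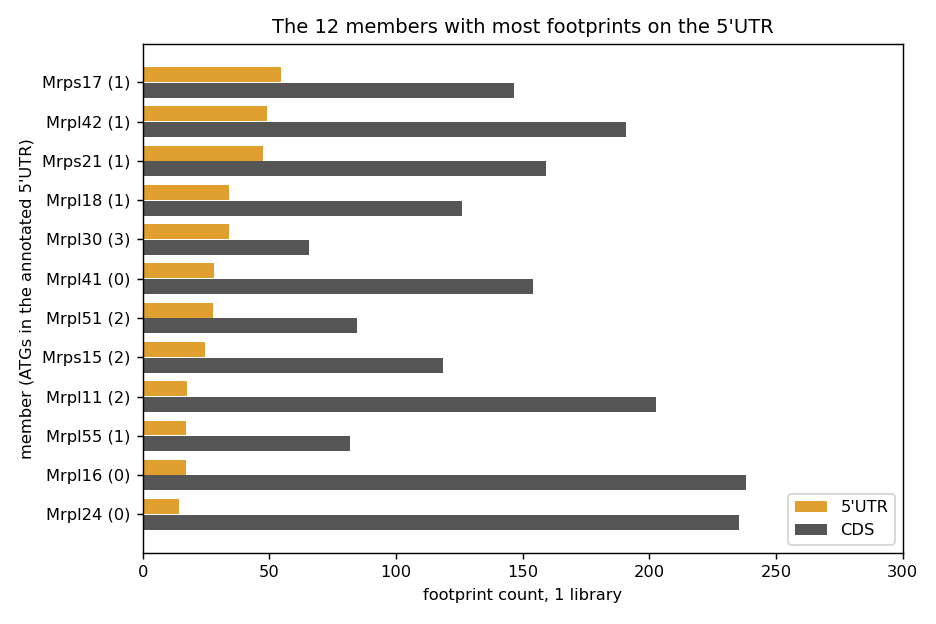
Footprint counts (1 library) on the 5′UTR and on the CDS of the 12 members with most 5′UTR footprints, with the number of ATGs in the annotated 5′UTR in parentheses. Mrps17, Mrpl42 and Mrps21 have 54.7, 49.0 and 47.6 on the 5′UTR.

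Members shared features around the start codon that the rule did not use. A purine 3 bases before the ATG was present in 94.8% of members against 87.3% of genes of passing rows, and a G right after the ATG in 70.1% against 54.3%. An upstream ATG was present in 35.1% of members against 49.5%, and the median 5′UTR was 91 nt against 169 nt. Member mRNAs were thus shorter at the 5′ end and closer to the favoured start context than genes in general. The letters AAGATGGC, in which ATG is the start codon, were found in 10 of 77 members (13.0%) against 4.26%. They are shown in capitals for members named above, 5′ to 3′, since they join the start codon and a motif of the factor YY1. The annotated 5′UTRs are short, 16 nt in Mrps10, 17 nt in Mrps27, 26 nt in Mrps18b, 52 nt in Mrpl35 and 32 nt in Mrps18a. That of Mrps7 has 236 nt, but its counted 5′UTR has 10 nt, and its letters were placed 18 nt from the RefSeq start.
Mrps10: agggcaccAAGATGGCggcgcgcg
Mrps27: tgcgctccAAGATGGCggctccca
Mrps18b: tgtgcgtcAAGATGGCtgccccct
Mrpl35: caggctgcAAGATGGCggcttcca
Mrps18a: tgcgttccAAGATGGCggccctca
Mrps7: cagcggccAAGATGGCtgcccccg
Their translational efficiencies on the CDS were 2.71, 1.14, 1.57, 1.05, 0.70 and -0.32 in that order. Of all 10 members with these letters, 8 lay above the members' median on the CDS and 7 on exons.

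RefSeq promoter windows of one length (GRCm38.p6) were available for 68 of the 77 members, 74 windows in all, and were searched on both strands. The ETS letters CCGGAAG were in 25 of 74 windows (33.8%) against 8.86% of all 32851 promoters, the NRF1 letters CGCATGCG in 7 (9.46%) against 1.87%, and AAGATGGC in 12 (16.2%) against 2.75%. At least one of these was in 37 of 74 (50%) against 12.6%. The AAGATGGC matches of Mrpl35, Mrpl49, Mrps18a, Mrps24, Mrps27 and Mrps7 are the start-codon sites counted above, not a separate feature. Those of Mrpl42 and Mrpl37 hold the upstream ATG of their 5′UTRs, and that of Mrpl42 is the site shown above. A run of pyrimidines at the annotated start, as in mRNAs of cytosolic ribosomal proteins, was in 0 of 74 against 2.51%. At so low a share, 74 windows are too few for the 0 to set members apart. Only the annotated start was read, and for Rpl21 the paper reports a main start away from the annotated one. Promoters of members held the ETS, NRF1 and AAGATGGC letters more often than promoters in general, and a match is a description, not a bound site. The reference here is all promoters, and promoters of passing rows were not counted apart. That choice can matter, since AAGATGGC at the start codon was in 2.51% of all genes against 4.26% of genes of passing rows. Examples with the letters in capitals are given for members that stood out above: Mrpl33 (ETS, chr5:31613940-31613963, plus strand), Mrpl52 (ETS read on the other strand, chr14:54426854-54426877, plus strand), Mrpl17 (NRF1, chr7:105811082-105811105, minus strand) and Mrpl9 (NRF1, chr3:94443301-94443324, plus strand).
Mrpl33: cgcatgccCCGGAAGtagtcgttg
Mrpl52: gatgtcggCTTCCGGttttcccgg
Mrpl17: agttactgCGCATGCGtcctctga
Mrpl9: cgcagctgCGCATGCGcggggtcc
Many members also start close to a neighbouring gene. A gene starting on the opposite strand within 1000 nt was annotated for 33 of 77 members (42.9%) against 18.4% of genes of passing rows. Mrpl46 and Mrps11 start 412 nt apart from each other, Mrpl36 starts 29 nt from the complex I gene Ndufs6, and Mrps12 starts 172 nt from Sars2, which encodes the mitochondrial seryl-tRNA synthetase; these pairs were chosen after their values were seen. The median translational efficiency was 0.81 with such a neighbour and 1.07 without on exons, and 0.73 and 0.66 on the CDS, so the order depended on the way of counting.

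Related gene lists were set beside the members. The 5 mitochondrial ribosomal proteins under other symbols, such as Dap3, had a median of 0.97 on exons and 0.65 on the CDS, with 2 of 5 above 1, close to the members. The 16 mitochondrial translation factors and related proteins, among them Lrpprc, Slirp and Oxa1l, had 0.44 on exons and 0.09 on the CDS. Above 1 on exons were 2 of 16, Slirp (1.64) and Tufm (2.82), the latter with 25.9% of its annotated CDS counted. The 26 assembly factors of the mitochondrial ribosome had 0.17 and 0.02 (5 of 26 above 1). Both lists had lower medians than the members, and lower levels, with median footprints of 22.5 and 13.4 RPKM against 89.0 RPKM. Their median counted CDS was 1046 and 1114 nt against 540 nt in members, and whether length has a part in these medians was not tested. The oxidative phosphorylation subunits, most of which sit in complexes with proteins that mitochondrial ribosomes make, had 0.99 and 0.57 (38 of 77 passing genes), at 274 RPKM. Cytosolic ribosomal proteins had 2.35 and 1.86 (56 of 78), at 2322 RPKM, with a median of 52.2% of their annotated CDS counted. Ict1, the older symbol of Mrpl58, does not match the rule; this release factor built into the large subunit had 90.3 RPKM in footprints, 51.5 and 60.6 RPKM in RNA, and 0.34.

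**Figure D5:**
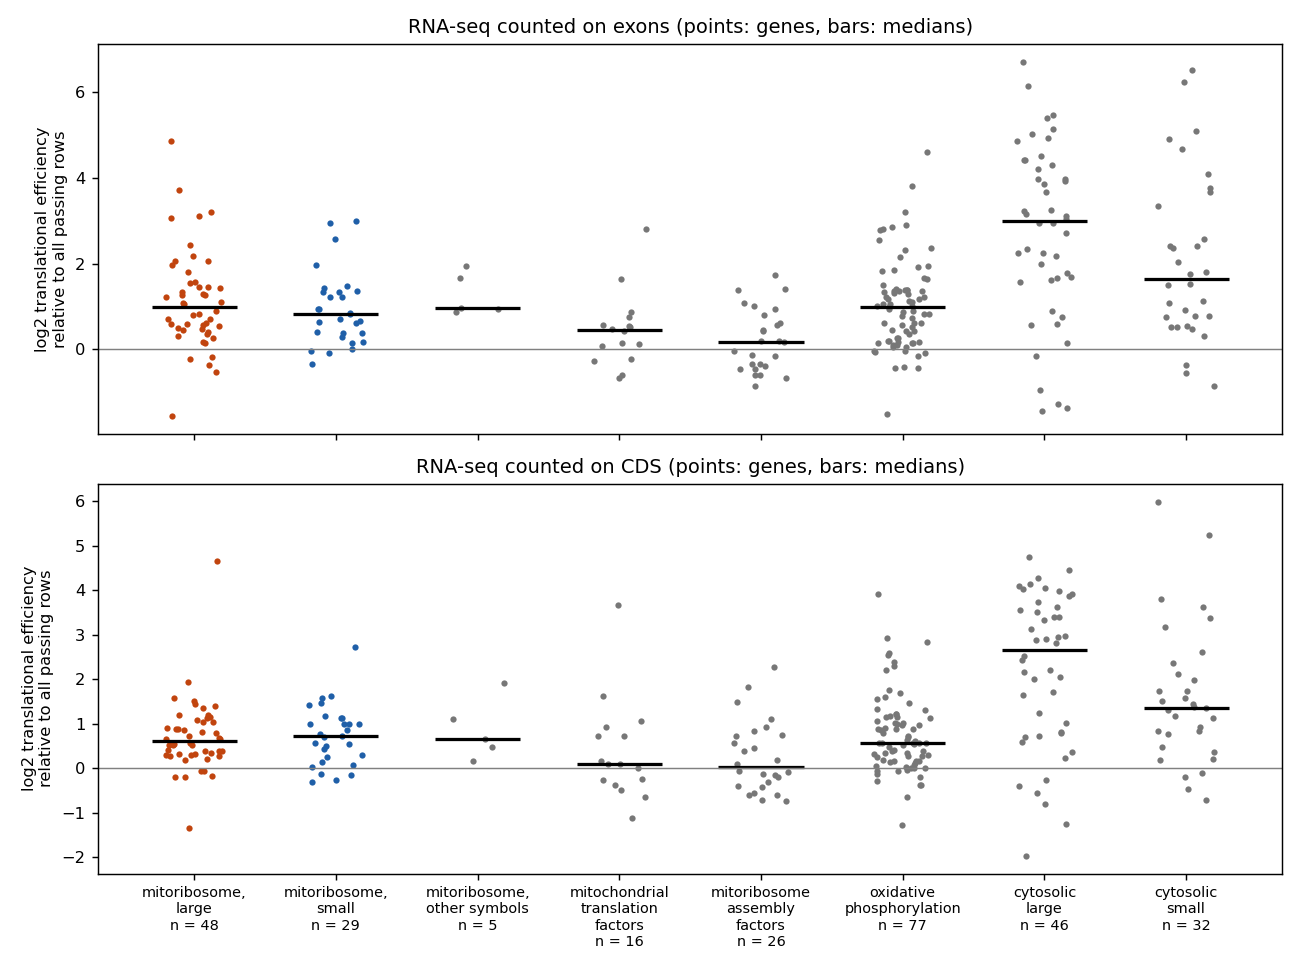
Log2 translational efficiency relative to the median of all passing rows for members by subunit and for the comparison lists, with RNA on exons (top) and on the CDS (bottom); points are genes and bars medians. The medians on exons are 0.97 and 0.81 for the large and small mitochondrial subunit and 0.99 for oxidative phosphorylation subunits, and those of both cytosolic subunits lie higher.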

How the data were processed

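The deposited files give estimated counts and RPKM per gene row and region, which the authors made by aligning reads with STAR 2.6.1 and counting with Plastid. For footprints alone, reads matching ribosomal, mitochondrial or tRNA sequence were first removed with Bowtie2 2.4.1. The annotation release, masked positions and strand of counting are not stated. Here RPKM was recomputed against the exon counts of each library, in Python 3.11.15 with numpy 2.4.6, pandas 2.3.3 and matplotlib 3.10.9. Size factors came from edgeR 4.0.16 and DESeq2 1.42.0 in R 4.3.3, on rounded counts. Translational efficiency used rows with RPKM above 1 in both RNA-seq libraries and a mean normalised count above 25. The files used here hold 1 footprint library and no short-read library of wild-type cells, so no test was fitted and no comparison with wild-type cells was made; footprint libraries the authors took from an earlier study were not used. Code was tested on simulated data. Start codons, overlaps and neighbours came from GENCODE M21 (GRCm38).

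Named members were Mrpl12 with Mrpl10 and Mrpl11, the Mrps18 genes, Mrps30, Mrps36, the extremes of each subunit in translational efficiency, footprints and RNA among members with at least 50 counts in every library, and those with the largest replicate difference or most UTR footprints. Mrpl23, Mrpl18 and genes outside the rule were added after their values were seen. Members and lists were chosen with earlier results of these data known. Mrpl55 was moved to the mitochondrion-specific list after the lists were written; as first listed, the large subunit medians were 0.86 with and 1.17 without a bacterial counterpart.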

Additional observations from a re-analysis of the deposited data

How the results depend on the processing

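A pseudocount of 1 RPKM, no filter on low values and leaving out joined names kept the direction of the median translational efficiencies and moved them by less than the spread between replicates. Scaling with edgeR TMM factors or DESeq2 size factors cancels in these centred values apart from the weight of the replicates, so it says nothing about stability. Asking for at least 100 counts in every library (67 members) gave 0.45 for all members, 0.47 for the large and 0.45 for the small subunit, and a difference (large minus small) of 0.013; the filter moved the reference, and so every gene, by -0.39, and relative to all passing rows the medians were 0.85, 0.86 and 0.85. With RNA counted on the CDS these were 0.67, 0.61, 0.71 and -0.10, the last reversed. Without division by length they were 1.01 for all members, 1.01 for the small subunit and 0.0030 for the difference. Among the 60 members counted over 80% or more of their annotated CDS the large subunit came to 0.81 and the difference to 0.0031, and by structure the small subunit came to 0.75. Alternatives chosen after seeing the data gave differences of 0.081 without Mrpl23 and -0.056, reversed, without members with a 3′UTR above 1000 nt. The SD of log2 RNA ranged from 0.94 to 0.95 over all members, 1.02 to 1.04 in the large and 0.79 to 0.81 in the small subunit when a replicate was left out. It was 0.85, 0.83 and 0.90 on the CDS, 0.87 (all) and 0.93 (large) with at least 100 counts, and 0.89 and 0.95 without Mrpl23. Also chosen after seeing the data, leaving out the 5 members with most 5′UTR footprints reversed the log2 ratio of 5′UTR RNA density between members with and without an upstream ATG, to -0.45 and -0.46 in the replicates; the 5 all have an upstream ATG, so only that group was trimmed. The causes were not tested.

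Among named members, translational efficiency reversed with at least 100 counts, through that shift of the reference alone, in Mrpl10 (-0.25), Mrps18c (-0.025), Mrpl44 (-0.14) and Mrpl4 (-0.035). It reversed without division by length in Mrpl24 (0.084), Mrpl37 (0.58), Mrps9 (0.40), Mrps31 (0.50), Mrps7 (0.11), Mrps33 (-0.035), Mrps15 (0.72) and Mrpl19 (-0.047). Mrps7 also reversed among members counted over 80% or more of the CDS (0.0069), where every gene moved by 0.057 with the reference, and ranged from -0.13 to 0.029 when a replicate was left out, reversed without replicate 2. Mrps15, close to 0, ranged from -0.042 to 0.017 when a replicate was left out, reversed without replicate 2, and reversed with a pseudocount (0.012), on the CDS (0.025) and, by the same shift of the reference, among members counted over 80% or more of the CDS (0.048). No paired analysis was possible because footprints and RNA come from libraries that the labels do not pair. With 1 footprint library in the files used, the spread of footprints between cultures is unknown, and members with few counts, such as Mrpl23, have wide counting error.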
